A study of Mus musculus with 6 samples.

Results

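The genes of the TGF-beta ligands (Tgfb1, Tgfb2 and Tgfb3), of their receptors (Tgfbr1, Tgfbr2 and Tgfbr3) and of the latent TGF-beta binding proteins (Ltbp1, Ltbp2, Ltbp3 and Ltbp4) were followed across WT, TIA1 KO and TIAR KO MEF. They were found by gene name on the arrays, and all 10 were measured, out of 34797 gene names in all. MEF are embryonic fibroblasts of the mouse, here in immortalized form. TIA1 and TIAR (gene Tial1) are related RNA-binding proteins that regulate splicing, mRNA stability and translation, and the study asked how the loss of either one alters the transcriptome of these cells. The groups were WT MEF of strain W4, MEF of strain BALB/c knocked out for TIA1, and MEF of strain C57BL/6 knocked out for TIAR, each with 2 replicates that the series calls independent and each without treatment. Every group was thus a cell line of another strain, and the TIA1 KO arrays also lay in another row of the shared slide, so that genotype, strain, cell line and, for TIA1 KO, slide row cannot be told apart. P-values measure only the spread between these replicates.

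TGF-beta is secreted in a latent form, in which the mature dimer stays bound to its own propeptide. Ltbp1, Ltbp3 and Ltbp4 bind this propeptide and anchor the complex in the extracellular matrix, whereas Ltbp2 is a matrix protein of the same family that does not bind latent TGF-beta. After release by integrins, thrombospondin or proteases, the ligand binds Tgfbr2, which recruits and phosphorylates Tgfbr1, and Tgfbr1 phosphorylates the transcription factors Smad2 and Smad3. Tgfbr3, or betaglycan, is a co-receptor that presents the ligand, above all TGF-beta2, to Tgfbr2. In fibroblasts this pathway is known for the induction of collagens, fibronectin and contractile proteins.

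Each array gave 1 log2 intensity per probe, after background correction and normalization across the 6 arrays, and groups are compared only within a probe. Where a probe is called the brightest, this refers to its intensity and not to a level of mRNA set against that of another probe. The 10 genes had 19 probes, 4 genes with 1 probe and 6 with several. The scanner software rated 13 of these probes as well above background on all 6 arrays, 3 on some and 3 on none. The 3 rated on none were all probes of Tgfbr1. Where a gene had several probes the brightest stood for it, and each of the 10 brightest probes was well above background on all 6 arrays. Between 16000 and 26254 of the 55681 probes of an array were well above background, the fewest on TIA1 KO replicate 1, and precision was limited by the number of arrays.

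The knocked-out genes were read first. The brightest Tia1 probe read 10.72 and 8.54 in WT MEF against 7.87 and 8.44 with TIA1 knocked out, with both TIA1 KO arrays below the lower WT array. Its log2 fold change was −1.47 (limma adjusted p = 0.288), and it was −0.38 without WT replicate 1 and −2.56 without WT replicate 2. A second Tia1 probe read 9.56 and 9.90 in WT MEF against 7.57 and 8.65 with TIA1 knocked out, again without overlap, with a log2 difference of −1.62 ± 0.42 (standard error, SE; unadjusted p = 0.0158, limma adjusted p = 0.116), which passed the test only without TIA1 KO replicate 2 (−2.16; limma adjusted p = 0.0121) among the arrays left out. The remaining Tia1 probe, not well above background in WT MEF, gave 0.87 (limma adjusted p = 0.149). Both brighter probes were thus lower in TIA1 KO MEF. With all arrays kept, neither passed the test after adjustment, except with arrays scaled to a common median. There they gave −2.14 and −2.33 (limma adjusted p = 0.000162 and 3.83e-05), and the median of all probes was −0.67.

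The brightest Tial1 probe read 13.22 on WT replicate 2, its spot on WT replicate 1 being an outlier that was left out, against 9.57 and 11.60 with TIAR knocked out (−2.63; limma adjusted p = 0.20). Without TIAR KO replicate 1 or 2 this was −1.62 and −3.65. Each group then held 1 array for this probe, which gives no spread to test against. A second Tial1 probe read 11.71 and 11.09 in WT MEF against 10.00 and 9.65 with TIAR knocked out, which is a log2 difference of −1.58 ± 0.26 (limma adjusted p = 0.0254). This call was lost without WT replicate 1 (limma adjusted p = 0.0603) and without TIAR KO replicate 1 or 2 (0.0763 and 0.124), and with the scanner software's processed intensities (0.0714).

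In both knockouts the genes of 2 ligands, Tgfb2 and Tgfb3, and of the latency protein Ltbp4 were up-regulated several-fold, and Ltbp2 was down-regulated. Tgfbr2 was up-regulated in TIA1 KO MEF and Ltbp1 was down-regulated in TIAR KO MEF. The brightest probe of Tgfb1 did not pass the test in either knockout. A probe was called where the Benjamini-Hochberg adjusted p of limma over all 55681 probes was under 0.05 and the fold change was above 2.

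In TIA1 KO MEF, 7 of the 19 probes were called up-regulated, against 2.18% of all probes, and 1 was called down-regulated, against 1.36% of all probes. For TIAR KO MEF, 6 were called up-regulated, against 3.39% of all probes, and 2 down-regulated, against 2.37%. By gene, read from the brightest probe, loss of TIA1 came with 5 rises and 1 fall, and loss of TIAR with 4 rises and 2 falls. Of all gene names read the same way, 2.88% rose and 1.63% fell in TIA1 KO MEF. In TIAR KO MEF 4.36% of them rose and 2.82% fell. The 19 probes had a median log2 fold change of 0.97 (TIA1 KO) and 0.38 (TIAR KO), against −0.09 and −0.02 over all probes. Both comparisons share the WT arrays. In bulk RNA, fewer cells of a type and less RNA per cell cannot be told apart.

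The TIA1 KO calls rested on both WT arrays: limma called none of the 19 probes, and none of all probes, when either WT array was left out, although 7202 and 7415 probes then had an unadjusted p under 0.05. The log2 fold changes of the 8 called probes kept their sign and moved by at most 0.35. Scaling the arrays to a common median in place of loess and quantile normalization moved the median of all probes in TIA1 KO MEF to −0.67 and left 5 up- and 1 down-regulated member probes, where 3.37% of all probes were called up- and 25.0% down-regulated. Both the authors' own log2 table and quantile normalization without loess gave 6 up- and 0 down-regulated member probes there, and Ltbp2 kept a negative value. With the scanner software's processed intensities limma called no probe at all in TIA1 KO MEF, although 27765 had an unadjusted p under 0.05, so that none of the TIA1 KO calls below held under that setting.

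**Figure D1:**
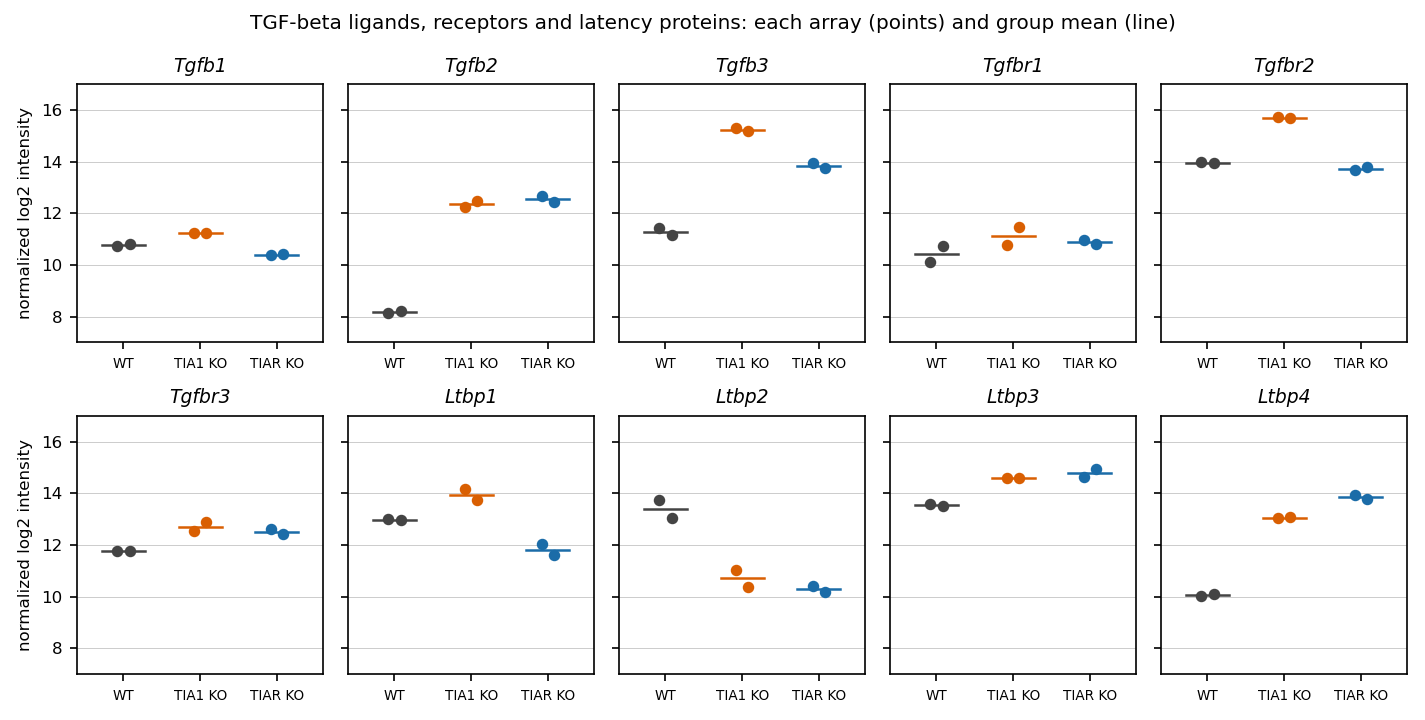
Normalized log2 intensity (vertical axis) of the brightest probe of each of the 10 genes on each array, for WT, TIA1 KO and TIAR KO MEF; points are the 2 arrays of a group and lines their mean. Tgfb2 lies near 8 on both WT arrays and above 12 on the other 4, Tgfb3 and Ltbp4 are lowest in WT, and Ltbp2 is highest in WT.

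Among the ligands, Tgfb2 had the largest fold change of the 10 genes in both knockouts, except that with arrays scaled to a common median Ltbp2 changed more in TIA1 KO MEF (−4.19 against 2.92 on the log2 scale). Relative to the median of all probes in that setting, −0.67, the values were −3.52 for Ltbp2 and 3.59 for Tgfb2. The brightest Tgfb2 probe matched the 3′ end of the coding sequence (mm9, chr1:188449333-188449392, minus strand). The probe of Tgfb1 (mm9, chr7:26489877-26489936, plus strand) matched the related stretch of that gene, and both are shown so that the similarity between the targets of these probes can be seen. Capitals mark the 28 bases that are identical in the best alignment without gaps, over 41 bases (68.3%).
Tgfb1 probe: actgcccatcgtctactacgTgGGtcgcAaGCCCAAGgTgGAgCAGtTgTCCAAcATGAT
Tgfb2 probe: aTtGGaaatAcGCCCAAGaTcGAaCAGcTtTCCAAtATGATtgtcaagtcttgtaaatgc
The probe of Tgfb3 (mm9, chr12:87397804-87397863, minus strand) shared 22 bases in 57 with that of Tgfb1 and 20 in 55 with that of Tgfb2 in the same kind of alignment.

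Tgfb2 read 8.14 and 8.23 (WT), 12.23 and 12.48 (TIA1 KO) and 12.66 and 12.44 (TIAR KO). All 4 knockout arrays lay far above both WT arrays, and the knockouts overlapped each other. Its log2 fold change was 4.17 ± 0.17 for TIA1 KO (18.0-fold; limma adjusted p = 0.00495), and 4.36 ± 0.15 for TIAR KO (20.6-fold; limma adjusted p = 0.000288), with n = 2 arrays per group here and throughout. A second Tgfb2 probe (mm9, chr1:188447534-188447593) was well above background on 1 of the 2 WT arrays, which read 6.73 and 7.41. Its log2 difference from WT was 3.93 ± 0.34 for TIA1 KO (limma adjusted p = 0.0191) and 4.19 ± 0.26 for TIAR KO (limma adjusted p = 0.00109). Without WT replicate 1 or 2 the brightest probe kept a log2 fold change of 4.13 and 4.21 in TIA1 KO MEF, but its limma adjusted p was 0.236 and 0.237. For TIAR KO it was called under all 13 alternatives, with a log2 fold change between 4.07 and 4.70.

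Tgfb3 read 11.42 and 11.18 (WT), 15.30 and 15.18 (TIA1 KO) and 13.94 and 13.78 (TIAR KO), each value being the mean of 10 spots of the probe. The 3 groups did not overlap, with TIA1 KO highest and WT lowest. TIA1 KO MEF differed from WT by 3.94 ± 0.17 on the log2 scale (15.4-fold; limma adjusted p = 0.00543), and TIAR KO MEF by 2.56 ± 0.16 (5.89-fold; limma adjusted p = 0.00125). Without WT replicate 1 or 2 the TIA1 KO value was 4.06 and 3.82 (limma adjusted p = 0.236 and 0.237), and with arrays scaled to a common median it was 2.38 and still called. The TIAR KO call held under all 13 alternatives, with a log2 fold change between 2.10 and 2.68.

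Tgfb1 changed least among the ligands. It read 10.74 and 10.81 (WT), 11.26 and 11.24 (TIA1 KO) and 10.38 and 10.44 (TIAR KO), also from 10 spots, less an outlier spot on TIAR KO replicate 2. The groups did not overlap, but the differences were small. TIA1 KO MEF differed from WT by 0.47 ± 0.15 on the log2 scale (limma adjusted p = 0.146), and TIAR KO MEF by −0.37 ± 0.14 (limma adjusted p = 0.228), and with arrays scaled to a common median they were −0.93 and −0.71 (limma adjusted p = 0.14 and 0.0371).

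The promoter of Tgfb2 is shown because this gene was called by both of its probes in both knockouts. RefSeq promoters of GRCm38.p6 were matched for 8 of the 10 genes, with 12 start sites, and the 250 bases before each start were searched on both strands for TGACGTCA (the cyclic AMP response element), TATAAA (the TATA box) and CAGACA (which holds the Smad-binding letters CAGA). None of the 3 motifs overlapped another in the promoters shown. TATAAA was found only at Tgfb2 among the 12 promoters, and in 12.4% of all 32851 promoters of this length. CAGACA was found in 3 of the 12 promoters, at Tgfb2 and at 1 start each of Tgfbr1 and Ltbp1, and in 17.1% of all promoters. A match describes letters in the window and was not tested for any function. In the Tgfb2 promoter (GRCm38.p6, chr1:186705990-186706239, minus strand) capitals mark CAGACA and TATAAA, in this order.
Tgfb2 promoter: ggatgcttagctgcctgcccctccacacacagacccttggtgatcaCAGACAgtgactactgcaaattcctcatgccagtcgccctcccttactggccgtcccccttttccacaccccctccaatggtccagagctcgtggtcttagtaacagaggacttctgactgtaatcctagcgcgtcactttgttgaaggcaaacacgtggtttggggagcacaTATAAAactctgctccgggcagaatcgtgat

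Among the receptors, Tgfbr2 was up-regulated in TIA1 KO MEF, and limma called 0 of the 7 receptor probes in TIAR KO MEF, where 1, that of Tgfbr3, had an unadjusted p under 0.05. The brightest Tgfbr2 probe (mm9, chr9:115997155-115997214, minus strand) read 13.98 and 13.95 (WT), 15.73 and 15.71 (TIA1 KO) and 13.67 and 13.79 (TIAR KO). The TIA1 KO arrays lay above all 4 others, and the TIAR KO arrays lay slightly below WT. TIA1 KO MEF differed from WT by 1.76 ± 0.15 on the log2 scale (3.38-fold; limma adjusted p = 0.0177), and TIAR KO MEF by −0.23 ± 0.14 (limma adjusted p = 0.472; −0.66 and 0.0415 with arrays scaled to a common median). Without WT replicate 1 or 2 the TIA1 KO value was 1.77 and 1.74 (limma adjusted p = 0.293 and 0.288), and with arrays scaled to a common median it was 0.22 (limma adjusted p = 0.734), or 0.89 above the median of all probes. 

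A second Tgfbr2 probe (mm9, chr9:115999496-115999555, minus strand) matched the end of the coding sequence and was dimmer. It is shown because the probes of this gene disagreed on the call, and capitals mark the stop codon.
Tgfbr2 second probe: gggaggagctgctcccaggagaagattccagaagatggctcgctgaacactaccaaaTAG
It read 9.65 and 9.04 (WT), 10.63 and 10.11 (TIA1 KO) and 9.30 and 9.07 (TIAR KO). The TIA1 KO arrays were again above the others, with a wider spread than on the brightest probe. With TIA1 lost this probe differed from WT by 1.02 ± 0.31 (log2; limma adjusted p = 0.141), and −0.10 with arrays scaled to a common median. For TIAR KO MEF the difference was −0.16 ± 0.24 (limma adjusted p = 0.797), and 0.14 without WT replicate 1.

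The brightest probe of Tgfbr1, the signalling kinase (mm9, chr4:47427736-47427795, plus strand), read 10.12 and 10.72 (WT), 10.76 and 11.48 (TIA1 KO) and 10.96 and 10.83 (TIAR KO). The WT arrays were the lowest, but the WT arrays and the TIA1 KO arrays lay about as far apart among themselves as the means of these groups. Against WT, TIA1 KO MEF gave a log2 difference of 0.70 ± 0.35 (limma adjusted p = 0.268), which turned to −0.69 with arrays scaled to a common median, and TIAR KO MEF one of 0.48 ± 0.23 (limma adjusted p = 0.352). With an array left out these ranged from 0.34 to 1.06 and from 0.18 to 0.78. The other 3 probes, of which 2 were designed to Ensembl transcripts, were not well above background on any array. Tgfbr3 (mm9, chr5:107535818-107535877, minus strand) read 11.78 and 11.76 (WT), 12.53 and 12.89 (TIA1 KO) and 12.60 and 12.42 (TIAR KO). All knockout arrays exceeded both WT arrays. TIA1 KO MEF gave 0.94 ± 0.19 (log2; limma adjusted p = 0.0868), which turned to −0.63 with arrays scaled to a common median. In TIAR KO MEF it was 0.74 ± 0.15 (1.67-fold), whose limma adjusted p of 0.0473 passed the threshold while its fold did not. This limma adjusted p ranged from 0.0387 to 0.421 over the 13 alternatives and was above the threshold in most of them. It was highest with arrays scaled to a common median, where the log2 fold change was 0.29.

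**Figure D2:**
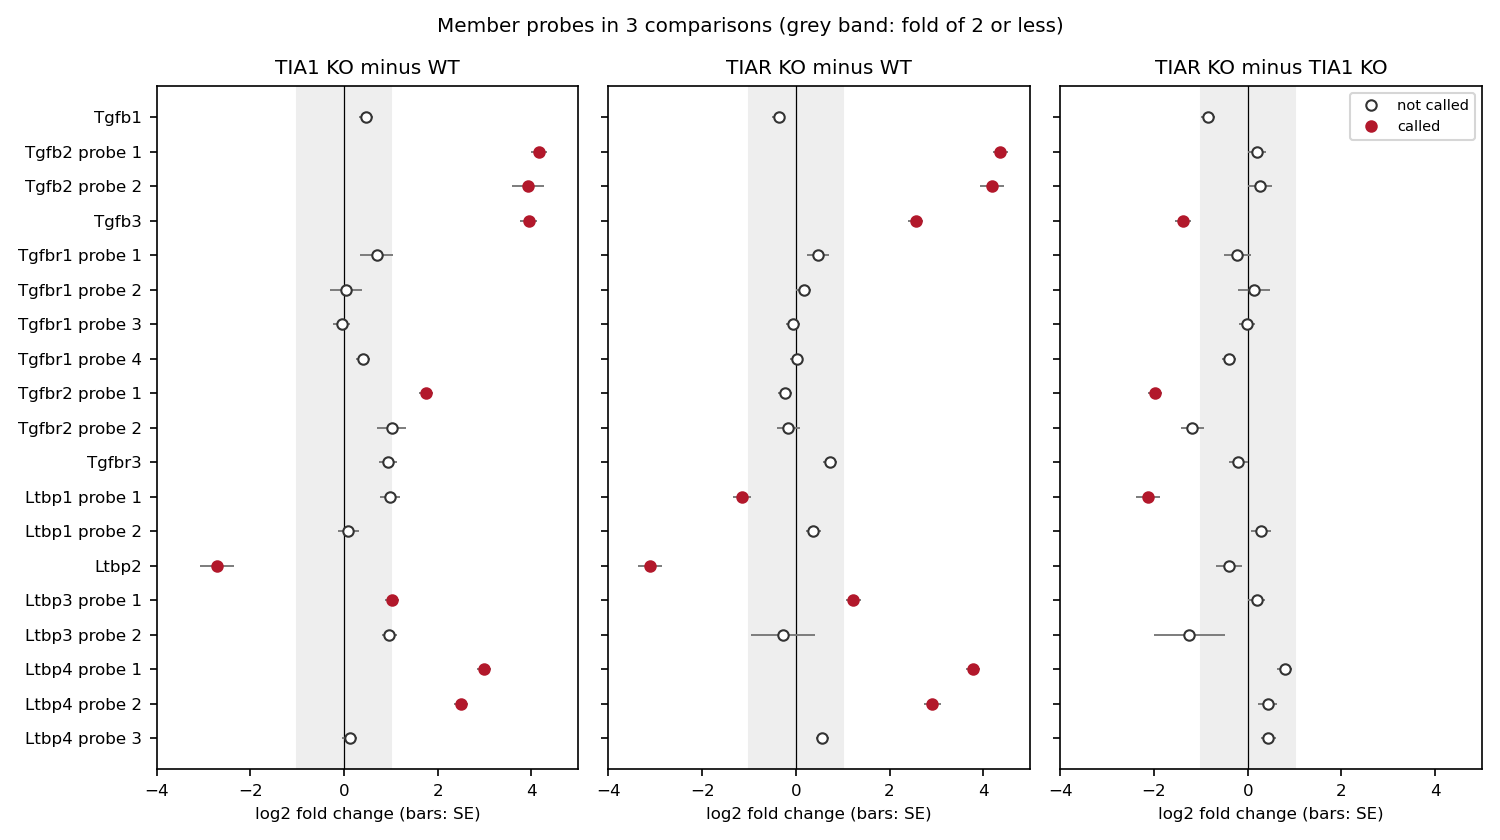
Log2 fold change (horizontal axis) of each of the 19 probes, numbered by brightness within a gene, in TIA1 KO against WT, TIAR KO against WT and TIAR KO against TIA1 KO MEF; bars are SE, filled points are called and the grey band holds folds of 2 or less. Both probes of Tgfb2 and the brighter 2 of Ltbp4 lie above 2 in both knockouts, and the probe of Ltbp2 lies below −2.

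Of the latency proteins, Ltbp4 rose, Ltbp2 fell and Ltbp3 rose slightly in both knockouts, and Ltbp1 fell in TIAR KO MEF. Ltbp4, which places latent TGF-beta1 in the matrix and takes part in elastic fibre assembly, read 10.03 and 10.10 in WT MEF on its brightest probe (mm9, chr7:28090175-28090234, minus strand). It read 13.03 and 13.09 with TIA1 lost and 13.92 and 13.78 with TIAR lost. The groups did not overlap, with WT lowest and TIAR KO highest. TIA1 KO MEF differed from WT by 2.995 ± 0.15 on the log2 scale (7.97-fold; limma adjusted p = 0.00636), and TIAR KO MEF by 3.79 ± 0.14 (13.8-fold; limma adjusted p = 0.000353). Without WT replicate 1 or 2 the TIA1 KO value was 2.96 and 3.03 (limma adjusted p = 0.241 and 0.238), and with arrays scaled to a common median it was 1.48 and still called (limma adjusted p = 0.0114), while the TIAR KO call held under all 13 alternatives.

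A second Ltbp4 probe in the coding sequence is shown because it lay apart from the brightest one and gave the same calls (mm9, chr7:28091095-28091154, minus strand).
Ltbp4 second probe: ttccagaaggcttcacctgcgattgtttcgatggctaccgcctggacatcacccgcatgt
It read 8.77 and 8.72 (WT), 11.21 and 11.27 (TIA1 KO) and 11.87 and 11.45 (TIAR KO). Relative to WT, TIA1 KO MEF differed by 2.49 ± 0.15 on the log2 scale (limma adjusted p = 0.00874; 0.246 and 0.247 without WT replicate 1 or 2; 1.27 and still called with arrays scaled to a common median), and TIAR KO MEF by 2.91 ± 0.19 (limma adjusted p = 0.00128). The remaining probe, designed to an Ensembl transcript (mm9, chr7:28096601-28096660), read 7.33 to 7.98 over the 6 arrays and was not well above background on either TIA1 KO array.

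Ltbp2 (mm9, chr12:86124167-86124226, minus strand) read 13.76 and 13.06 (WT), 11.02 and 10.39 (TIA1 KO) and 10.42 and 10.17 (TIAR KO). Both WT arrays lay above all knockout arrays, and the knockouts overlapped each other. TIA1 KO MEF differed from WT by −2.71 ± 0.36 on the log2 scale (6.52-fold lower; limma adjusted p = 0.0430), and TIAR KO MEF by −3.11 ± 0.27 (8.65-fold lower; limma adjusted p = 0.00309). The TIA1 KO call was lost with the authors' table (limma adjusted p = 0.0650) and without WT replicate 1 or 2, with log2 fold changes of −2.36 and −3.06 (limma adjusted p = 0.337 and 0.300). In TIAR KO MEF it held under all 13 alternatives.

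Ltbp3, which binds latent TGF-beta during its secretion, read 13.59 and 13.53 (WT), 14.58 and 14.61 (TIA1 KO) and 14.64 and 14.93 (TIAR KO) on its brightest probe (mm9, chr19:5758289-5758346, plus strand). All knockout arrays lay above WT by about the fold threshold. Against WT, TIA1 KO MEF gave a log2 difference of 1.03 ± 0.15 (2.05-fold; limma adjusted p = 0.0497), which turned to −0.54 with arrays scaled to a common median, and TIAR KO MEF one of 1.22 ± 0.16 (2.34-fold; limma adjusted p = 0.0137). The TIA1 KO call was kept under 3 of 13 alternatives, and was lost without WT replicate 1 or 2 or TIA1 KO replicate 1 (limma adjusted p = 0.352, 0.350 and 0.0571). The TIAR KO call was kept under 8 of 13, and was lost without WT replicate 1 or 2 or TIAR KO replicate 2 (limma adjusted p = 0.0534, 0.0584 and 0.0649), with arrays scaled to a common median, where it was 0.76 and under the fold threshold, and with the scanner software's processed intensities (0.96; limma adjusted p = 0.179). A second probe (mm9, chr19:5758082-5758141) read 14.32 and 12.14 on the TIAR KO arrays against 13.58 and 13.43 in WT MEF, a log2 fold change of −0.27 ± 0.68, and 0.81 without TIAR KO replicate 2. The probes of Ltbp3 thus disagreed in TIAR KO MEF through replicate 2. In TIA1 KO MEF the second probe gave 0.97 ± 0.16 (limma adjusted p = 0.0616), and −0.60 with arrays scaled to a common median.

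Ltbp1, the protein that anchors latent TGF-beta1 to fibrillin and fibronectin, read 12.99 and 12.95 (WT), 14.17 and 13.72 (TIA1 KO) and 12.04 and 11.60 (TIAR KO) on its brightest probe (mm9, chr17:75790530-75790589, plus strand). WT lay between the knockouts, without overlap. Its log2 difference from WT was 0.98 ± 0.21 for TIA1 KO (limma adjusted p = 0.0947; called only without TIA1 KO replicate 2, at 1.199 and 0.0196), and it turned to −0.58 with arrays scaled to a common median. In TIAR KO MEF it was −1.15 ± 0.19 (2.22-fold lower; limma adjusted p = 0.0274). This call was lost without WT replicate 1 or 2 or TIAR KO replicate 2, with log2 fold changes of −1.13, −1.17 and −0.93 (limma adjusted p = 0.0988, 0.0866 and 0.0870), with processed intensities (0.0967) and with all 3 groups fitted together (0.0551). A second probe, designed to an Ensembl transcript, did not follow this fall. It read 7.28 and 7.52 (WT), 7.28 and 7.72 (TIA1 KO) and 7.73 and 7.82 (TIAR KO), and was well above background on 1 WT array, no TIA1 KO array and both TIAR KO arrays. TIAR KO lay above WT without overlap, by 0.38 ± 0.16 (limma adjusted p = 0.281). The promoter of Ltbp1 is shown as the only member promoter with TGACGTCA, in capitals, which was found in 1.55% of all promoters (GRCm38.p6, chr17:75005279-75005528, plus strand).
Ltbp1 promoter: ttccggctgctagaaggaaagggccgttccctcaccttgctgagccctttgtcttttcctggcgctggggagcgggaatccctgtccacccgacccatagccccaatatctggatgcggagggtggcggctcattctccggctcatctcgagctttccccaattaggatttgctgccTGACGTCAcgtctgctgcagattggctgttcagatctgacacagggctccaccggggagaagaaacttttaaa

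The knockouts were then compared with each other without the WT arrays. Of the 19 probes, limma called 0 higher in TIAR KO than in TIA1 KO MEF, against 1.72% of all probes and with 2 at an unadjusted p under 0.05, and 3 were called lower, against 1.63% of all probes. These were the brightest probes of Tgfb3, Tgfbr2 and Ltbp1, with log2 fold changes of −1.38 ± 0.16 (limma adjusted p = 0.0362), −1.99 ± 0.15 (limma adjusted p = 0.0154) and −2.13 ± 0.26 (limma adjusted p = 0.0383). The second probe of Tgfbr2 gave −1.18 ± 0.24 (limma adjusted p = 0.10). The median of the 19 probes was −0.20, where that of all probes was 0.05. Tgfb2, with 0.20 ± 0.19 (limma adjusted p = 0.545), and Ltbp2, with −0.41 ± 0.28 (limma adjusted p = 0.418), did not pass, and the sign of Tgfb2 turned to −0.18 with the scanner software's processed intensities and that of Ltbp2 to 0.71 with arrays scaled to a common median. With an array left out Tgfb2 ranged from 0.07 to 0.32 and Ltbp2 from −0.73 to −0.09.

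Between the knockouts limma called no probe at all when either TIAR KO array was left out. The spread then came from the 2 TIA1 KO arrays alone. The 3 log2 fold changes kept their sign and moved by at most 0.22. Scaling to a common median moved the median of all probes to 0.63 and gave 3 up-regulated and 0 down-regulated member probes, against 13.01% and 1.91% of all probes. None of the 3 was among those called above. They were the brightest probe of Ltbp3 (1.31; limma adjusted p = 0.0479) and both brighter probes of Ltbp4 (1.91 and 1.43; limma adjusted p = 0.00185 and 0.0280). Relative to the median of all probes these values were 0.68, 1.28 and 0.80. On that scale Tgfb3, Tgfbr2 and Ltbp1 gave −0.28, −0.88 and −1.02 (limma adjusted p = 0.671, 0.208 and 0.142), none of them called, or −0.91, −1.51 and −1.64 relative to the median of all probes.

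**Figure D3:**
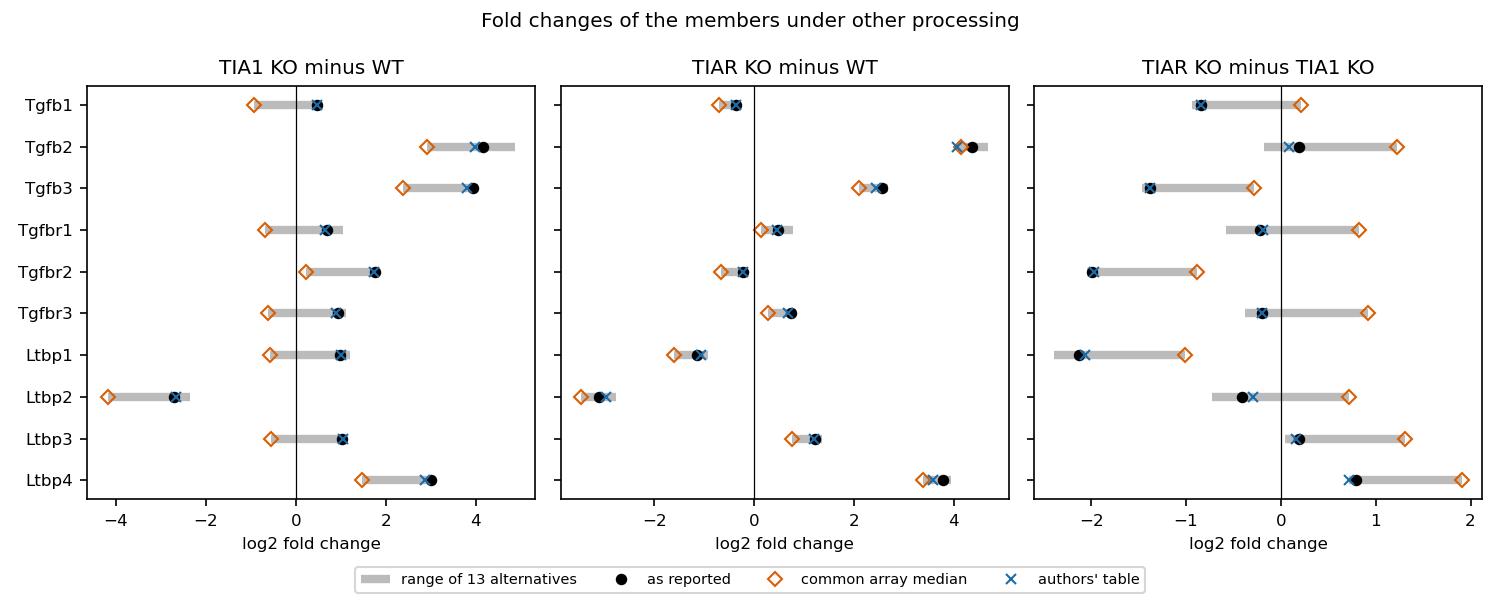
Log2 fold change (horizontal axis) of the brightest probe of each gene in the 3 comparisons as reported (black), with arrays scaled to a common median (diamonds) and from the authors' table (crosses); grey bars span all 13 alternatives. Tgfb2, Tgfb3, Ltbp2 and Ltbp4 stay on 1 side of 0 in both comparisons with WT, whereas Tgfb1, Tgfbr1, Tgfbr3, Ltbp1 and Ltbp3 cross 0 in TIA1 KO MEF.

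Other genes of the pathway were read from 5 lists, each gene from its brightest probe. Of all gene names, loss of TIA1 came with 2.88% called up and 1.63% called down, loss of TIAR with 4.36% and 2.82%, and 2.06% higher and 2.12% lower in TIAR KO than in TIA1 KO MEF. Of 12 genes that activate latent TGF-beta, 5 rose and 1 fell in TIA1 KO MEF, with a median log2 fold change of 0.75 against −0.07 for all genes. In TIAR KO MEF 4 rose and 1 fell, with a median of 0.62 against −0.01.

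Lrrc32, or GARP, which holds latent TGF-beta on the cell surface (mm9, chr7:105650282-105650341), read 7.06 and 6.85 (WT), 14.81 and 15.06 (TIA1 KO) and 7.43 and 7.54 (TIAR KO). It was well above background on 1 of the 2 WT arrays and stood far above all others in TIA1 KO MEF. Against WT, the rise in TIA1 KO MEF was 7.98 ± 0.18 (log2; limma adjusted p = 0.00362), and TIAR KO lay below TIA1 KO MEF by −7.45 ± 0.17 (limma adjusted p = 0.00464). Itgb3, a subunit of an integrin that binds latent TGF-beta, read 8.17 and 8.01 (WT), 13.05 and 13.29 (TIA1 KO) and 11.44 and 11.05 (TIAR KO). The groups did not overlap. It rose by 5.08 ± 0.18 with loss of TIA1 (log2; limma adjusted p = 0.00392) and by 3.16 ± 0.19 with loss of TIAR (limma adjusted p = 0.00102), and between the knockouts it was −1.92 ± 0.22 (limma adjusted p = 0.0334; −0.90 and 0.197 with arrays scaled to a common median). Thbs1, or thrombospondin, read 12.34 and 12.35 (WT), 15.65 and 15.77 (TIA1 KO) and 14.02 and 14.13 (TIAR KO), and differed between the knockouts by −1.64 ± 0.16 (limma adjusted p = 0.0245), a call that was lost with arrays scaled to a common median (−0.53; limma adjusted p = 0.397). The membrane protease Mmp14 rose by 2.24 ± 0.15 in TIAR KO MEF (limma adjusted p = 0.00136). The secreted protease Mmp2 read 11.82 and 11.99 (WT), 7.56 and 8.21 (TIA1 KO, not well above background) and 7.86 and 8.05 (TIAR KO). TIA1 KO MEF had at least 13.8-fold less of it, taken against the lowest value rated well above background on each array or the probe's own value where higher (limma adjusted p = 0.0119), and TIAR KO MEF differed from WT by −3.95 ± 0.16 on the log2 scale (limma adjusted p = 0.000367).

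Among 6 accessory receptors and decoys, 1 rose in each knockout, the co-receptor Nrp1, by 2.72 ± 0.17 (TIA1 KO; log2; limma adjusted p = 0.0102) and 1.99 ± 0.16 (TIAR KO; limma adjusted p = 0.00253). Cd109, which binds TGF-beta and dampens its signal, was lower in TIAR KO than in TIA1 KO MEF by −1.32 ± 0.16 (limma adjusted p = 0.0394). This call was kept under 5 of 13 alternatives, and was lost with the authors' table (limma adjusted p = 0.0599) and with arrays scaled to a common median (−0.20; limma adjusted p = 0.77). Of 10 intracellular transducers and inhibitors, limma called 0 in TIA1 KO MEF, where 2 higher and 4 lower had an unadjusted p under 0.05, and 1 rose and 1 fell in TIAR KO MEF. The inhibitor Smad6 rose by 1.26 ± 0.19 (limma adjusted p = 0.0211; 0.0624, 0.0821 and 0.110 without WT replicate 2, TIAR KO replicate 1 or TIAR KO replicate 2). Zfyve9, the anchor that brings Smad2 and Smad3 to the receptor, changed by −1.09 ± 0.19 (limma adjusted p = 0.0287), a call lost without each of the 4 arrays in turn (limma adjusted p = 0.0502 to 0.109). The median of this list was −0.11 for TIA1 KO and −0.17 for TIAR KO.

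All 5 matrix partners of the latent complex rose in TIAR KO MEF and 3 rose in TIA1 KO MEF, with medians of 2.20 and 2.50. The fibrillin Fbn2 read 6.58 and 6.65 (WT, not well above background), 9.52 and 9.67 (TIA1 KO) and 10.44 and 10.43 (TIAR KO). It was at least 6.40-fold higher in TIA1 KO MEF (limma adjusted p = 0.00728) and at least 11.4-fold higher in TIAR KO MEF (limma adjusted p = 0.000307). Fibrillin-1 (Fbn1), to which the latent complex binds, rose by 2.50 ± 0.19 in TIA1 KO MEF (limma adjusted p = 0.0152), which was 0.94 and not called with arrays scaled to a common median (limma adjusted p = 0.136). Fibronectin (Fn1) rose by 2.74 ± 0.16 (limma adjusted p = 0.00874; 1.21 and 0.0445 with arrays scaled to a common median) and 2.20 ± 0.15 (limma adjusted p = 0.00151). Emilin1, which limits the processing of the TGF-beta precursor, rose by 2.56 ± 0.20 in TIAR KO MEF (limma adjusted p = 0.00255). The crosslinking enzyme Tgm2 was higher in TIAR KO than in TIA1 KO MEF by 2.12 ± 0.18 (limma adjusted p = 0.0186), a call kept under 7 of 13 alternatives and lost with the authors' table.

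**Figure D4:**
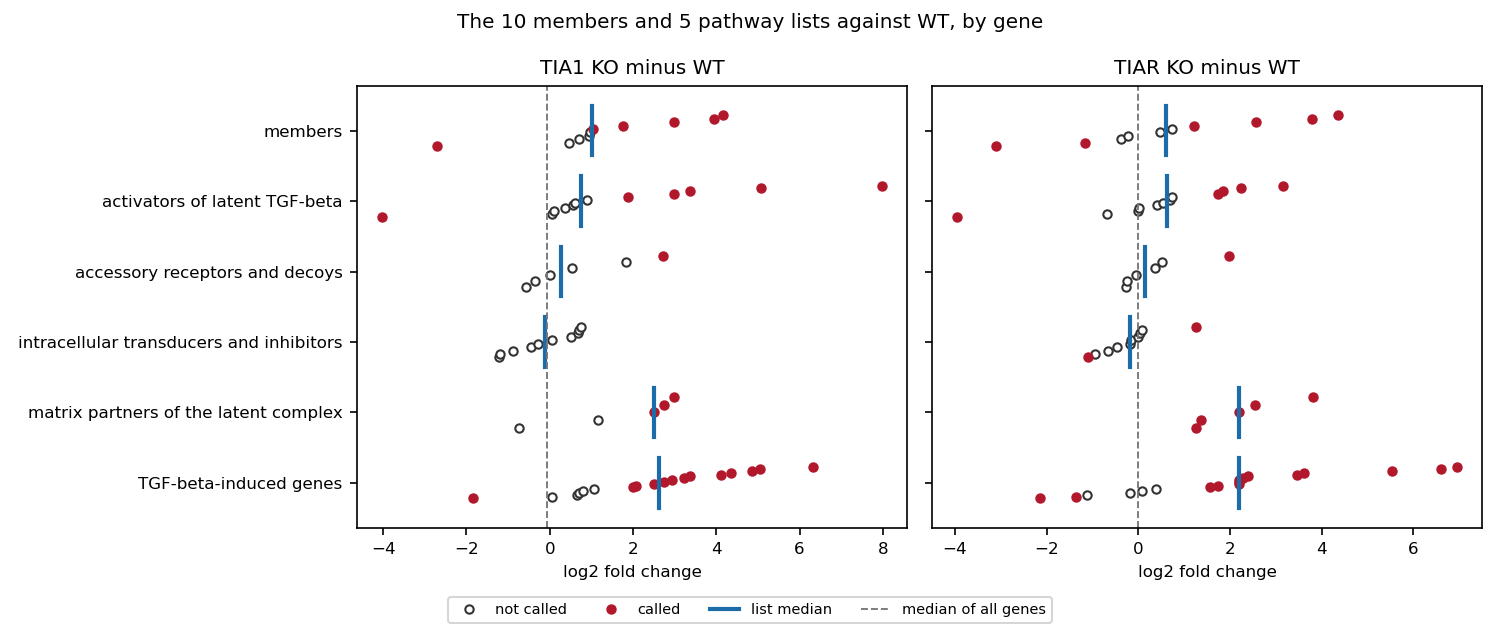
Log2 fold change against WT (horizontal axis) of the 10 members and of the genes of 5 pathway lists, each gene from its brightest probe; filled points are called, blue bars are list medians and the dashed line is the median of all genes. The matrix partners and the TGF-beta-induced genes have medians above 2 in both knockouts, and the intracellular transducers lie around 0.

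Of 18 genes known to be induced by TGF-beta, 12 rose and 1 fell in TIA1 KO MEF (median 2.62), and 12 rose and 2 fell in TIAR KO MEF (median 2.20). Between the knockouts, 2 were higher and 6 lower in TIAR KO MEF. Smad7, Skil, Fn1 and Thbs1 stand on another list as well. The genes did not move as a block. Ctgf, a matricellular growth factor (mm9, chr10:24318281-24318340), read 14.47 and 14.84 (WT), 17.73 and 18.02 (TIA1 KO) and 16.20 and 16.22 (TIAR KO). It rose by 3.22 ± 0.22 in TIA1 KO MEF (limma adjusted p = 0.0117; 1.69 and still called with arrays scaled to a common median) and by 1.56 ± 0.18 in TIAR KO MEF (limma adjusted p = 0.00810; 0.0516 and 0.0563 without TIAR KO replicate 1 or 2). Between the knockouts it was −1.66 ± 0.18 (limma adjusted p = 0.0302), but −0.62 and not called with arrays scaled to a common median (limma adjusted p = 0.333). Tgfbi, an adhesion protein of the matrix (mm9, chr13:56740460-56740519), had the opposite order of the knockouts. It read 8.68 and 8.97 (WT), 13.01 and 12.88 (TIA1 KO) and 15.75 and 15.81 (TIAR KO). It rose by 4.12 ± 0.18 (limma adjusted p = 0.00544) and by 6.95 ± 0.16 (limma adjusted p = 0.000176), and between the knockouts it was 2.84 ± 0.16 (limma adjusted p = 0.00892).

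Pmepa1, a negative regulator of the Smad response, rose by 5.05 ± 0.17 in TIA1 KO MEF (limma adjusted p = 0.00386) and was lower in TIAR KO than in TIA1 KO MEF by −2.84 ± 0.17 (limma adjusted p = 0.00970). The collagen gene Col3a1 rose by 6.32 ± 0.21 (TIA1 KO; limma adjusted p = 0.00369) and 6.60 ± 0.49 (TIAR KO; limma adjusted p = 0.00206), and smooth muscle actin (Acta2) by 4.85 ± 0.20 (limma adjusted p = 0.00492) and 5.54 ± 0.18 (limma adjusted p = 0.000254). The cell cycle inhibitor Cdkn1a was lower in TIAR KO than in TIA1 KO MEF by −2.94 ± 0.17 (limma adjusted p = 0.00942). It was 1 of the 2 genes of this list that fell against WT in TIAR KO MEF (−2.13; limma adjusted p = 0.00189). In TIA1 KO MEF it gave 0.81 against WT and was not called (limma adjusted p = 0.0776). These differences of Cdkn1a from WT were not followed under the alternatives. Without either WT array no probe at all was called in TIA1 KO MEF, nor between the knockouts without either TIAR KO array, so that these pathway calls were lost as well. The log2 fold changes of the 21 pathway genes called in TIA1 KO MEF and of the 12 called between the knockouts kept their sign there and moved by at most 0.42 and 0.20. With arrays scaled to a common median Nrp1 (1.81) and Tgfbi (2.69) in TIA1 KO MEF and Pmepa1 (−1.80) and Cdkn1a (−1.83) between the knockouts were smaller but still called.

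**Figure D5:**
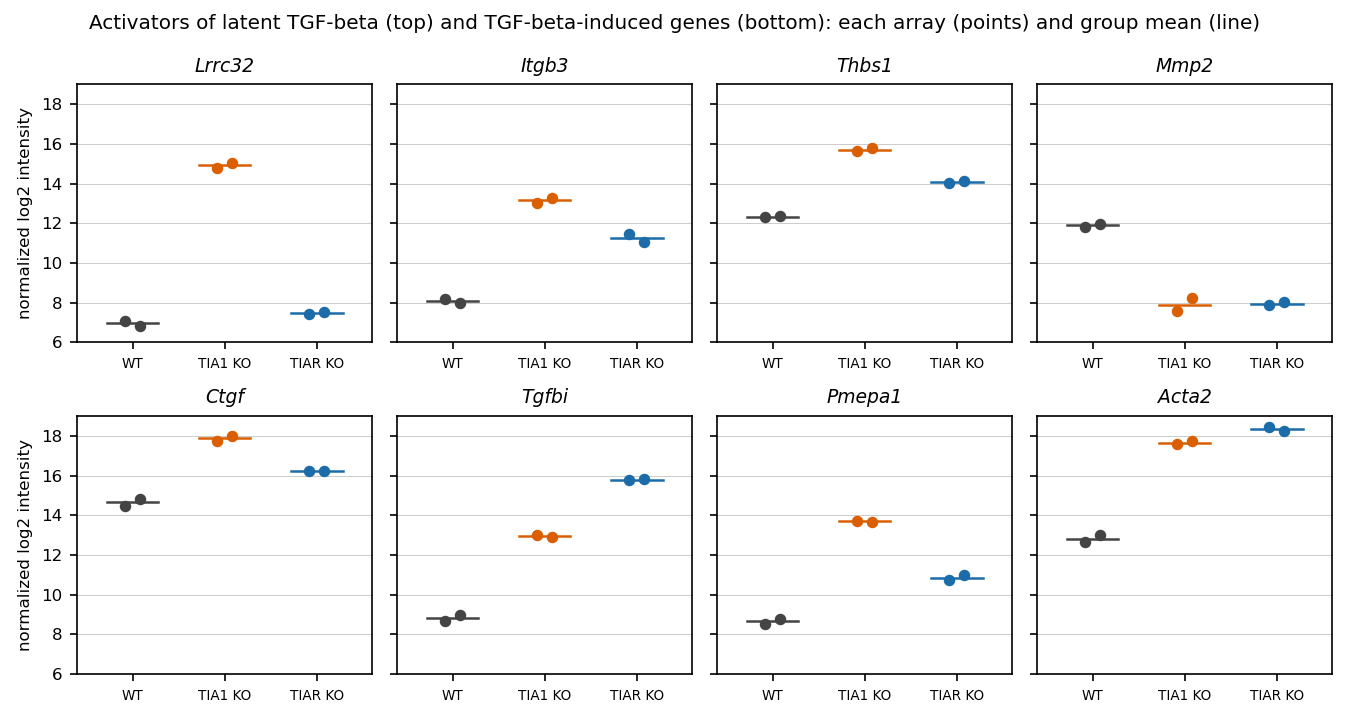
Normalized log2 intensity (vertical axis) of the brightest probe of 4 activators of latent TGF-beta and 4 TGF-beta-induced genes on each array; points are the 2 arrays of a group and lines their mean. Lrrc32 is high on the TIA1 KO arrays alone, and Tgfbi is highest in TIAR KO MEF.

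Cell type markers also differed between the lines. Of 8 fibroblast markers, 6 were well above background on both WT arrays, 7 on both TIA1 KO arrays and 8 on both TIAR KO arrays, with vimentin and S100a4 bright on all 6 arrays. Col1a1, Col1a2 and Fn1 stand among these markers and in the TGF-beta-induced list. The mean log2 value of this list was 13.09 and 12.94 (WT), 14.91 and 15.01 (TIA1 KO) and 16.16 and 16.06 (TIAR KO). Pdgfra, a defining fibroblast receptor, read 6.37 and 6.40 in WT MEF, where it was not well above background, against 10.05 and 10.23 (TIA1 KO) and 11.68 and 11.51 (TIAR KO). Thy1 read 6.63 and 6.98 (WT), 7.11 and 7.48 (TIA1 KO) and 14.84 and 14.74 (TIAR KO). Of the 8 markers, 5 rose with TIA1 lost and 6 with TIAR lost, as Tgfb2, Tgfb3 and Ltbp4 did in both. Of all gene names, 2.88% rose with TIA1 lost and 4.36% with TIAR lost. Vimentin (Vim) gave 0.44 and 0.49 and S100a4 gave 0.015 and 0.43, and neither passed in either knockout. Thy1, not well above background on either TIA1 KO array, was at least 131-fold higher in TIAR KO than in TIA1 KO MEF (limma adjusted p = 0.00464) and carried most of the difference in the list mean, as the median difference of the 8 markers was 0.28.

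The 3 mesothelial markers had mean log2 values of 9.95 and 9.57 (WT), 10.37 and 10.80 (TIA1 KO) and 13.25 and 13.07 (TIAR KO). The markers did not move together. Msln, whose probe was the brightest of them and well above background on all 6 arrays, fell by 1.62 in TIAR KO MEF (log2; limma adjusted p = 0.0249) and was −3.28 there against TIA1 KO MEF (limma adjusted p = 0.00942). Upk3b and Wt1 were well above background only in TIAR KO MEF, where they were at least 143-fold and 16.3-fold higher than in WT (limma adjusted p = 0.000206 and 0.000488). Of 4 epithelial markers, 1 was well above background on both WT arrays, 1 on both TIA1 KO arrays and 3 on both TIAR KO arrays, with Krt18 brightest in TIAR KO MEF at 10.08 and 9.95 and mean values of the list from 7.28 in WT to 8.64 in TIAR KO MEF. Of these, 3 rose in TIAR KO MEF, against 4.36% of all gene names. Krt8 and Krt18 rose there by 1.23 and 2.72 (log2; limma adjusted p = 0.0099 and 0.000707). Cdh1, not well above background in WT, rose there by at least 2.53-fold (limma adjusted p = 0.00371). In TIA1 KO MEF Krt8 alone rose, by 1.23 (limma adjusted p = 0.0444), against 2.88% of all gene names. Cdh1 and Krt18 were higher in TIAR KO than in TIA1 KO MEF, against 2.06% of all gene names. The 4 endothelial markers averaged 8.15 to 8.53 and the 5 of macrophages and blood 8.95 to 9.38 over the arrays. The brightest probes of these lists were those of Kdr and Itgam. No endothelial marker was called by limma in any comparison, with 1 of 4 at an unadjusted p under 0.05 in each knockout against WT. Itgam rose by 1.82 in TIA1 KO MEF (limma adjusted p = 0.0415) and was −1.66 in TIAR KO against TIA1 KO MEF (limma adjusted p = 0.0287), and Cd68 was 1.48 in the latter comparison (limma adjusted p = 0.0264). Ptprc, Emr1 and Cdh5 were not well above background on any array. The part of these differences in the values of the TGF-beta genes was not tested.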

How the data were processed

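The authors deposited, for each of the 6 arrays, the mean intensity and local background of every spot from Agilent Feature Extraction 10.7.3.1, not normalized between arrays, and a table of normalized log2 values per spot. The deposited log2 table was used as an alternative. Its columns had medians of 7.22 to 7.23 and correlated at 0.997 to 0.999 with the values used here, so its scale and direction were clear. Intensities were corrected by normexp (offset 50), logged (base 2), fitted by loess to the mean array in 1 pass and quantile normalized. Control and outlier spots were left out, and spots of a probe were averaged. A probe was well above background where the software rated 50% or more of its spots so. Each comparison was fitted with limma 3.58.1 (R 4.3.3; lmFit and eBayes) on its own 4 arrays, with adjustment over 55681 probes and thresholds of 0.05 and a fold of 2. The fits were tested on simulated data. Probe positions are those of the files (mm9), and promoters are those of RefSeq (GRCm38.p6). Tables and plots used Python 3.11.15 with pandas 2.3.3, numpy 2.4.6 and matplotlib 3.10.9.

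The members, the gene lists, the markers and the tests were chosen with earlier results of these data known. Text named every member, Ctgf, Tgfbi and, per list and comparison, up to 3 called genes with the largest change if both arrays of the higher group rated them well above background. A further gene of the TGF-beta-induced list is counted in its totals and is not reported here by name. Alternatives were scaling to a common array median, an offset of 16, quantile normalization with no loess step, processed intensities of the scanner software divided by the 75th percentile, the authors' log2 table, outlier spots kept, only probes well above background, all 3 groups fitted together, the replicate number as a block, and each array left out in turn with the normalization kept. A group left with 1 array was taken to vary like the other.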

Additional observations from a re-analysis of the deposited data

Results flagged for a closer look

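The direct comparison of the knockouts, which leaves out the WT arrays, called the brightest probe of 3 of the 10 genes. TIAR KO MEF were lower than TIA1 KO MEF by −1.38 (log2) for Tgfb3, −1.99 for Tgfbr2 and −2.13 for Ltbp1. Of all gene names, read the same way, 2.12% were called lower. The genotypes lie on different strains and cell lines and the TIA1 KO arrays in another row of the slide, which cannot be told apart from the genotype. With the authors' table Tgfbr2 was still called (−1.97; limma adjusted p = 0.0243), while Tgfb3 (−1.38; limma adjusted p = 0.0553) and Ltbp1 (−2.07; limma adjusted p = 0.0563) were not. Without TIAR KO replicate 1 or 2, where limma called no probe at all, the values stayed at −1.47 and −1.30 for Tgfb3 (limma adjusted p = 0.299 and 0.327), −1.93 and −2.04 for Tgfbr2 (0.254 and 0.238), and −2.35 and −1.91 for Ltbp1 (0.285 and 0.328). With arrays scaled to a common median none of the 3 was called.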

How the results depend on the processing

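With 2 arrays per group, calls in TIA1 KO MEF and between the knockouts changed with the array left out. A group left with 1 array then took its spread from the other group. Leaving out an array in turn gave 0 to 10 called member probes in TIA1 KO MEF (0 without either WT array, 7 and 10 without TIA1 KO replicate 1 or 2), 6 to 9 in TIAR KO MEF and 0 to 4 between the knockouts (0 without either TIAR KO array), against 8, 8 and 3 as reported. The scanner software's processed intensities, which moved the median of all probes to 1.98 in TIA1 KO MEF and −1.85 between the knockouts, gave 0, 6 and 0, and with them limma called 0 of all probes of the TIA1 KO comparison, although 27765 reached an unadjusted p under 0.05. The authors' table gave 6, 8 and 1. The cause was not tested. All other alternatives gave a TIA1 KO count of 6 to 8, a TIAR KO count of 7 to 8 and, except for the block, a count between the knockouts of 2 to 3. All these probes were among those reported, except between the knockouts with arrays scaled to a common median, where 0 of the 3 were. Replicate numbers did not pair the arrays, since deviations from the group means correlated at 0.08, 0.03 and −0.07. With the replicate number as a block, 6 member probes were called in TIA1 KO, 8 in TIAR KO MEF and 0 between the knockouts, where limma called 0 of all probes and 10675 had an unadjusted p under 0.05.

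Of 130 values of the 10 genes under alternatives in each comparison, 5 changed sign in TIA1 KO MEF, 0 in TIAR KO MEF and 6 between the knockouts. Scaling to a common median gave, in TIA1 KO MEF, −0.93 for Tgfb1, −0.69 for Tgfbr1, −0.63 for Tgfbr3, −0.58 for Ltbp1 and −0.54 for Ltbp3, and, for their second probes, −0.10 for Tgfbr2 and −0.60 for Ltbp3. Relative to the shift of all probes, −0.67, the values were −0.26 for Tgfb1, −0.02 for Tgfbr1, 0.04 for Tgfbr3, 0.09 for Ltbp1 and 0.13 for Ltbp3. Between the knockouts it gave 0.21 for Tgfb1, 0.82 for Tgfbr1, 0.92 for Tgfbr3 and 0.71 for Ltbp2. Processed intensities gave −0.18 for Tgfb2 between the knockouts. With an array left out, Tgfbr1 ranged from −0.58 to 0.14 between the knockouts (0.14 without TIA1 KO replicate 2) and the second Tgfb2 probe from −0.0371 to 0.55 (−0.0371 without TIA1 KO replicate 1). In TIAR KO MEF, the second Tgfbr2 probe ranged from −0.47 to 0.14 (0.14 without WT replicate 1) and the second Ltbp3 probe from −1.36 to 0.81 (0.81 without TIAR KO replicate 2). None of the values of the named pathway genes changed sign. In TIAR KO MEF, processed intensities ended the calls of Ltbp1, Ltbp3, Smad6, Zfyve9, Ctgf and the second Tial1 probe, among the named genes followed under the alternatives. Between the knockouts they left Lrrc32 and Pmepa1 called among the named genes that were followed. The cell type markers other than Fn1 were not followed under the alternatives.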
